A study of Mus musculus with 12 samples.

Results

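The genes described here make up the protein folding and quality control system of the endoplasmic reticulum (ER), taken from a fixed list of 47 symbols of ER chaperones, folding enzymes, components of ER-associated degradation (ERAD), the protein translocation channel, a pair of vesicle coat genes and the stress sensors of the ATF6 and IRE1-XBP1 arms. The list was chosen with earlier results of these data known, so shares of members set beside shares of all genes are a description. A gene was a member if its symbol in the deposited table equalled a listed one, which gave 44 members among 22183 genes. The symbols Ero1l, Ero1lb and Vimp had no row. Their current names Ero1a, Ero1b and Selenos did, were not counted as members, and had log2 fold changes between HFD and NFD of 0.34 ± 0.19 (edgeR adjusted p = 0.344), 0.69 ± 0.21 (adjusted p = 0.0925) and 0.30 ± 0.15 (adjusted p = 0.299). All 44 members passed the filter on low counts in each comparison, and their counts per library ranged from 26 to 14102.

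RNA was sequenced from the aorta, taken from the ascending part down to where it divides, of male mice lacking apolipoprotein E (APOE-/-), a genotype shared by every group. The mice clear lipoproteins poorly and form atherosclerotic lesions. They were 8 weeks old at the start, and the 12 libraries fell into 3 groups of 4. NFD mice ate a normal fat diet (5% fat, no cholesterol) and HFD mice a high-fat diet (16% fat, 0.25% cholesterol), and both were given saline by the intragastric route for the last 4 weeks. HFD+TUDCA mice ate the high-fat diet for 8 weeks and were then, still on it, given 1000 mg/kg of tauroursodeoxycholic acid daily for 4 weeks instead of saline. TUDCA is a bile acid conjugate that is used as a chemical chaperone. There was no NFD group with TUDCA, and the whole vessel was sequenced rather than sorted cells.

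Secretory and membrane proteins fold in the ER, where Hsp70 and Hsp90 chaperones, lectin chaperones and disulfide isomerases assist them, and those that fail to fold are pulled back to the cytosol and degraded by ERAD. When unfolded proteins accumulate, the sensor ATF6 is cut to release a transcription factor and the sensor IRE1 (Ern1) splices Xbp1 mRNA into the form that encodes an active one, and both raise the genes of the folding and ERAD machinery. ER stress of this kind is known from macrophages, smooth muscle cells and endothelium of atherosclerotic lesions. Counts per gene do not tell spliced from unspliced Xbp1 mRNA, nor cleaved from uncleaved ATF6.

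The promoters of many of these genes hold the motifs through which both factors act. The ER stress element (ERSE: CCAAT, any 9 bases, CCACG), the shorter ERSE-II (ATTGG, any 1 base, CCACG) and the core of the unfolded protein response element (UPRE, TGACGTGG) were searched on both strands of RefSeq promoter windows (GRCm38.p6), which run from 250 bases before the transcription start to 50 after it. Of the 44 members, 37 had 1 or more windows, 44 windows in all. An exact ERSE was present in 9 of these windows (20.5%) and in 39 of all 32851 windows in the table (0.119%), ERSE-II in 2 (4.55% against 0.0365%) and UPRE in 3 (6.82% against 0.676%). Since the members were listed as genes of the arms that act through these motifs, the shares describe the list and are not a test. Each of the 14 windows with a motif belonged to a different gene, and no match overlapped another. The ERSE and ERSE-II matches are printed here because the ERSE is the sequence through which ATF6 and XBP1 are known to act on chaperone genes. Each is written 5′ to 3′ on the motif's own strand, with the fixed letters in capitals.
Hspa5 ERSE: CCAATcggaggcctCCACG
Creld2 ERSE: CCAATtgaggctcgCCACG
Hsp90b1 ERSE, distal: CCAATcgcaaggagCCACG
Hsp90b1 ERSE, proximal: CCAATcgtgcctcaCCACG
Dnajc3 ERSE: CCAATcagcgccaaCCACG
Calr ERSE: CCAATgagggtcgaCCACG
Canx ERSE: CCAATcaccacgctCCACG
Pdia6 ERSE: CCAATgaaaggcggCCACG
Syvn1 ERSE: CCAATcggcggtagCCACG
Derl3 ERSE: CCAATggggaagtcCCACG
Dnajb11 ERSE-II: ATTGGcCCACG
Herpud1 ERSE-II: ATTGGgCCACG

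The whole windows of 3 chaperone genes with an ERSE follow, on the strand of the gene and with the ERSE in capitals. The window of Hspa5 is chr2:34771840-34772139 (plus strand), that of Creld2 is chr15:88819396-88819695 (plus strand) and that of Hsp90b1 is chr10:86705395-86705694 (minus strand), all in GRCm38. Counted from the RefSeq start as 0, the ERSE of Hspa5 spans positions -65 to -47 and that of Creld2, which lies on the opposite strand to the gene, -126 to -108. Hsp90b1 holds an ERSE at -212 to -194 and a second, on the opposite strand, at -107 to -89.
Hspa5 promoter: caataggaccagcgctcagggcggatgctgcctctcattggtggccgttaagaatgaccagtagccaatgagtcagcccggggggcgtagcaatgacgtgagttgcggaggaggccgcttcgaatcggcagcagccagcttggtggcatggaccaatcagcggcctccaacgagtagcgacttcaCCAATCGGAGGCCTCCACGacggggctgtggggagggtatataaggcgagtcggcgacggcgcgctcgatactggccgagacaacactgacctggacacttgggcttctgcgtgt
Creld2 promoter: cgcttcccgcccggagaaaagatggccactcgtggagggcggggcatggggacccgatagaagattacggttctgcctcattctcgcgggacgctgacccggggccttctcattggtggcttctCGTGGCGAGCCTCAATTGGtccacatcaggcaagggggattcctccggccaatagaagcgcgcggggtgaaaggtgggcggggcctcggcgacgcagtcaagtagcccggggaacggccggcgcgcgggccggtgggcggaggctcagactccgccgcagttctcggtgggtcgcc
Hsp90b1 promoter: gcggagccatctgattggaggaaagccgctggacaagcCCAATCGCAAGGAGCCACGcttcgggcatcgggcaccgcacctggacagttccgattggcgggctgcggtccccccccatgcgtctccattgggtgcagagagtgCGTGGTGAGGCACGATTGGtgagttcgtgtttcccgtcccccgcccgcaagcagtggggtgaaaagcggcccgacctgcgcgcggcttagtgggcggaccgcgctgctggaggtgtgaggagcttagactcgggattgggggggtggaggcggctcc

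The UPRE core was found in the windows of Sec24d, Txndc11 and Txndc5. A match is a description of the letters and not evidence of a bound site, and a window without one says only that these exact letters are not in it. Of the members called higher in HFD than in NFD (below), Hspa5 and Creld2 had a match. The windows of Sdf2l1, Pdia4 and Edem1 had none, and Manf had no window. Calr, Canx, Derl3, Dnajc3, Hsp90b1, Pdia6 and Syvn1 had an ERSE and were not called.

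**Figure D1:**
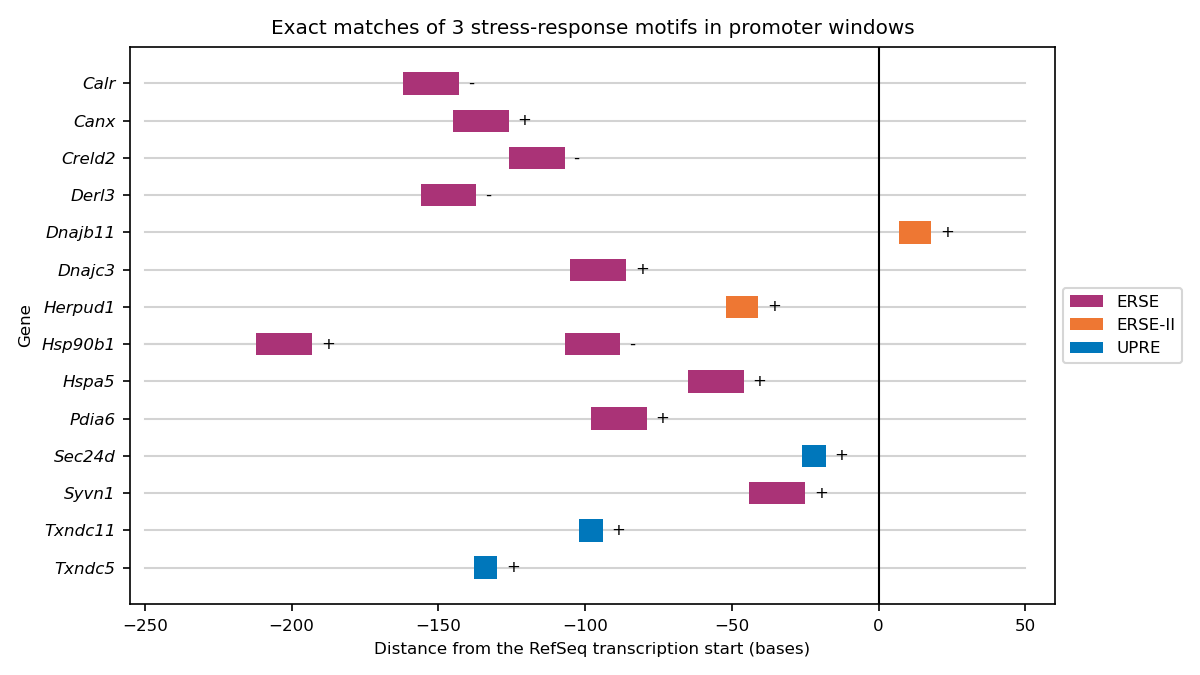
Position of each exact motif match (bars, with the motif's strand beside it) in the promoter windows of 14 ER genes, as the distance in bases from the RefSeq transcription start. The ERSE matches of 9 genes all lie before the start, and the ERSE-II of Dnajb11 lies after it.

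The libraries held 15199317 to 22061692 counts, and mitochondrial transcripts took 8.56% (HFD replicate 4) to 19.2% (HFD+TUDCA replicate 4) of them. Correlation between libraries of a group, on the log2 scale of CPM (counts scaled to a common library total), was 0.957 to 0.981 in NFD, 0.923 to 0.952 in HFD and 0.855 to 0.965 in HFD+TUDCA. The smooth muscle genes Acta2 and Myh11 and the endothelial gene Pecam1 were present in every library, with Acta2 between 696 and 1956 CPM. Their presence goes with the aortic label and does not show that other tissue was absent. Summed markers of adipocytes (8 genes) ranged from 8231 to 17499 CPM. This was above the sum of 8 smooth muscle markers (2127 to 5529 CPM) in every library. Of the adipocyte markers, 1 was lower in HFD than in NFD (edgeR adjusted p under 0.05). Heart muscle, adrenal and epithelial marker genes varied widely between libraries of 1 group, the summed adrenal markers for example from 7.79 to 5568 CPM in NFD. Some sums also differed between NFD and HFD without overlap. They were 3117 to 8419 against 339 to 2376 CPM for heart muscle and 1019 to 2054 against 19.4 to 927 CPM for epithelium. For liver they were 35.7 to 65.3 against 6.85 to 12.7 CPM. By edgeR adjusted p under 0.05, 3 of 8 heart muscle, 0 of 8 epithelial and 3 of 4 tested liver markers were lower in HFD. In tissue of mixed cells, fewer cells of a type and less RNA per cell cannot be told apart. The labels do not say whether the libraries stand for separate animals, and the p-values measure no more than the spread between these samples. Levels below are CPM normalised by TMM, and the error given with ± is the SD over 4 libraries for a level and the SE for a log2 fold change.

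The comparison of HFD with NFD asks what the high-fat diet did to these genes. BiP (Hspa5), 3 other genes among the 11 Hsp70 and Hsp90 chaperones and their partners (Creld2, Sdf2l1 and Manf), 1 disulfide isomerase and 1 ERAD lectin were higher on the high-fat diet. Of the 44 members, 6 rose (13.6%), namely Creld2, Sdf2l1, Manf, Hspa5, Pdia4 and Edem1, where 3.18% of the 14918 genes tested rose (edgeR quasi-likelihood test, adjusted p under 0.05 over all genes). None fell by that test, against 1.64% of all genes. At an unadjusted p under 0.05, 20 members were higher, where 12% of all genes were, and 1, Derl1, was lower, where 8.99% were. DESeq2 called 15 members higher, where it called 6.56% of all genes higher, and 1 lower, where it called 4.8%. The count of 6 fell to 1, Creld2, without NFD replicate 1 (0.984% of all genes higher) or NFD replicate 3 (0.82%), fell to 2, Creld2 and Pdia4, without NFD replicate 2 (1.64%), and rose to 9 without HFD replicate 3 (5.01%).

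The difference was small for most members and almost all lay on the same side. The median log2 fold change of the members was 0.37, against 0.04 over all genes tested. It was above 0 for 42 of 44 members, where this held for 53.9% of all genes, and the exceptions were Ern1 and Derl1. In 17 members every HFD library was above every NFD library, where 8.1% of all genes showed this, and in Derl1 every HFD library was below, where 6.89% did. The 17 were Atf6, Hspa5, Hsp90b1, Dnajb11, Sdf2l1, Creld2, Manf, Uggt1, Pdia3, Pdia4, Pdia6, Txndc5, Edem1, Sel1l, Sec61a1, Ssr1 and Sec24d. Summed over the members, the level was 4775 to 5177 CPM in the NFD libraries, 6388 to 7147 CPM in HFD and 4436 to 5267 CPM in HFD+TUDCA, and the HFD libraries stood above both other groups without overlap.

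**Figure D2:**
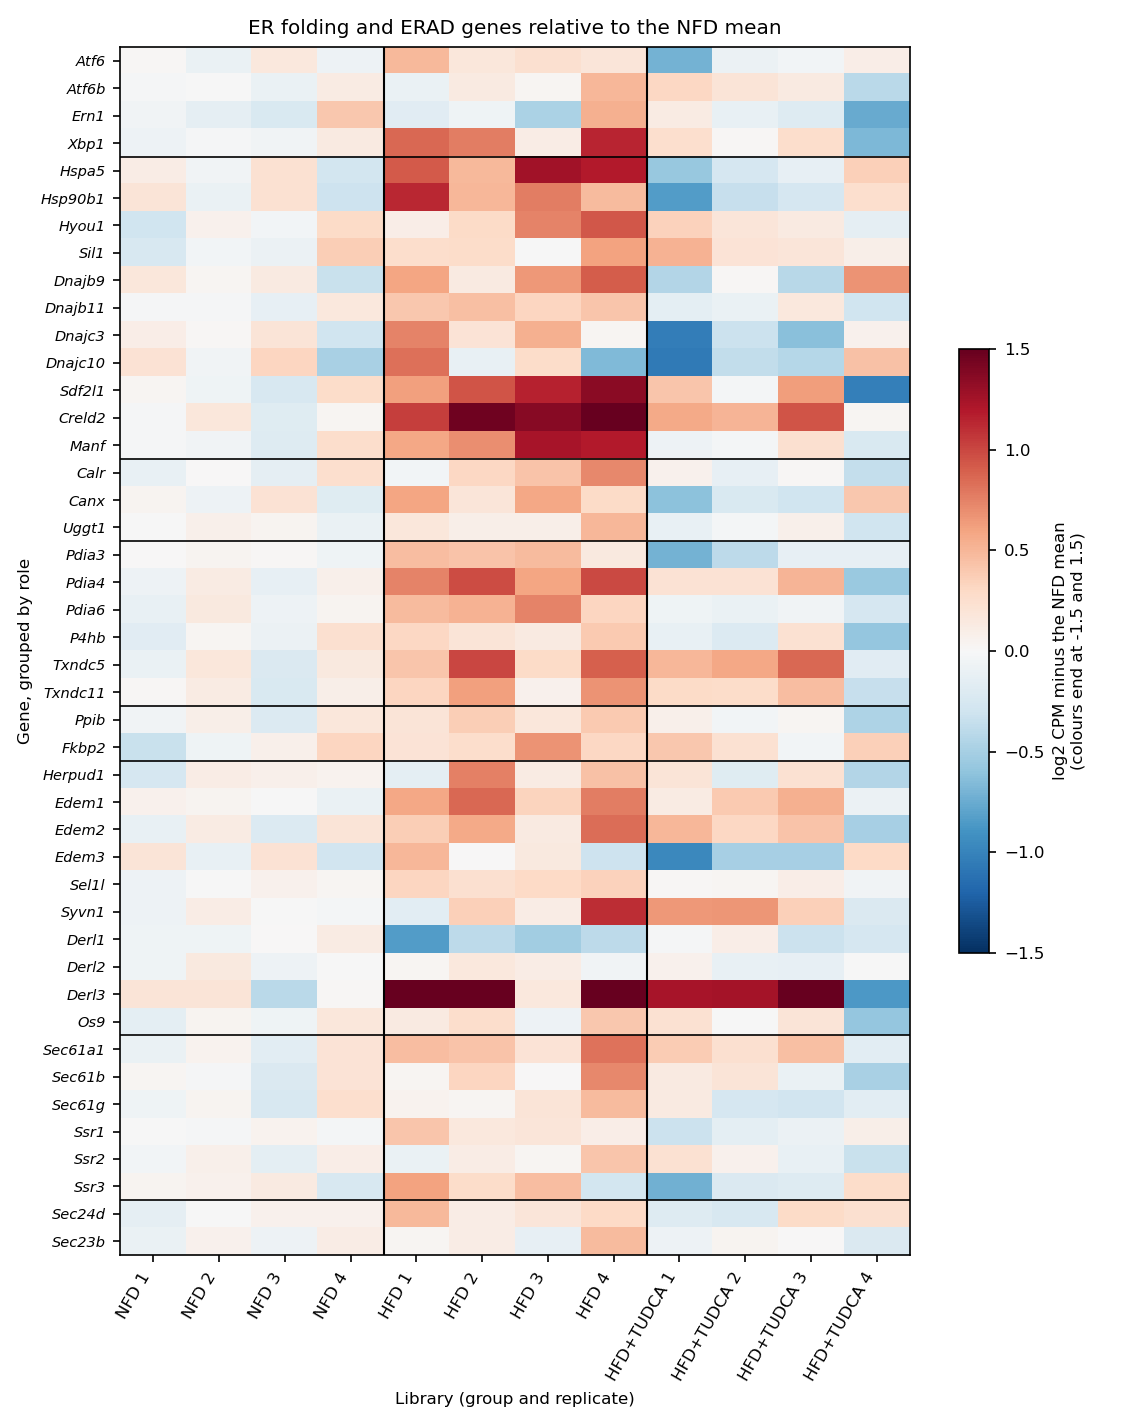
log2 CPM of each of 44 ER genes (rows, grouped by role) in each of 12 libraries (columns), minus the gene's NFD mean; red is above and blue below it. The columns of HFD are mostly red, with Creld2 strongly so in all 4 of them and Derl3 in replicates 1, 2 and 4, Derl1 is blue in all 4, and the pattern within HFD+TUDCA differs between replicates 1 and 4.

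Among the 11 Hsp70 and Hsp90 chaperones and their partners, 4 rose, 0 fell and 7 did not pass, where 3.18% of all genes rose. The median log2 fold change of the 11 was 0.59 (range 0.17 to 1.39). Creld2, an ER protein with disulfide isomerase-like motifs that ER stress induces, had, over replicates 1 to 4, 17.1, 19.5, 15.2 and 17.6 CPM in NFD, 35.4, 47.4, 44.4 and 54.1 CPM in HFD and 25.6, 24.7, 33.2 and 17.6 CPM in HFD+TUDCA. The HFD libraries were above all others, and HFD+TUDCA lay between the diets except replicate 4, which was within the NFD range. The 2.62-fold rise, to 45.3 ± 7.75 CPM in HFD over 17.4 ± 1.74 CPM in NFD (log2 fold change 1.39 ± 0.16, edgeR adjusted p = 0.00246), kept its call without any 1 of the 8 libraries.

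Sdf2l1, part of the BiP chaperone complex, was at 16.5, 15.4, 13.7 and 19.6 CPM in NFD, 24.6, 31.0, 36.0 and 41.1 CPM in HFD and 21.5, 15.8, 25.0 and 7.90 CPM in HFD+TUDCA, replicates 1 to 4 in order. HFD and NFD did not overlap, and HFD+TUDCA spread from below the lowest NFD library to slightly above the lowest HFD library. It rose 2.04-fold on the high-fat diet (log2 fold change 1.03 ± 0.18, edgeR adjusted p = 0.0164). The call was lost without NFD replicate 1 (adjusted p = 0.0644), 2 (0.0513) or 3 (0.0772) and in 1 fit of all 12 libraries (0.0814).

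Manf encodes a secreted neurotrophic factor that is held in the ER by BiP and induced by ER stress. Its level was 56.8, 55.3, 50.1 and 68.7 CPM in NFD, 85.5, 92.7, 135 and 130.4 CPM in HFD and 54.5, 56.4, 67.9 and 49.1 CPM in HFD+TUDCA. The NFD and HFD+TUDCA groups overlapped, and all 4 HFD libraries were above both. Manf rose 1.93-fold (log2 fold change 0.95 ± 0.18, edgeR adjusted p = 0.0186), a call lost without NFD replicate 1 (adjusted p = 0.0720), 2 (0.0625) or 3 (0.0971).

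Hspa5 (ENSMUSG00000026864, chromosome 2, 34771970 to 34777547, GRCm38) encodes BiP, the main Hsp70 of the ER, whose release from the sensors is part of how they are switched on. Its promoter is the first of those printed above. Its level was 224, 199.8, 244 and 171 CPM in NFD, 393, 291, 496 and 475 CPM in HFD and 140.1, 175, 191 and 266 CPM in HFD+TUDCA. Every HFD library was above every library of the other groups, HFD replicate 2 being the nearest to them. It rose 1.98-fold (log2 fold change 0.99 ± 0.20, edgeR adjusted p = 0.0231), and the call was lost without any 1 of the NFD libraries, with an adjusted p of up to 0.0794.

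**Figure D3:**
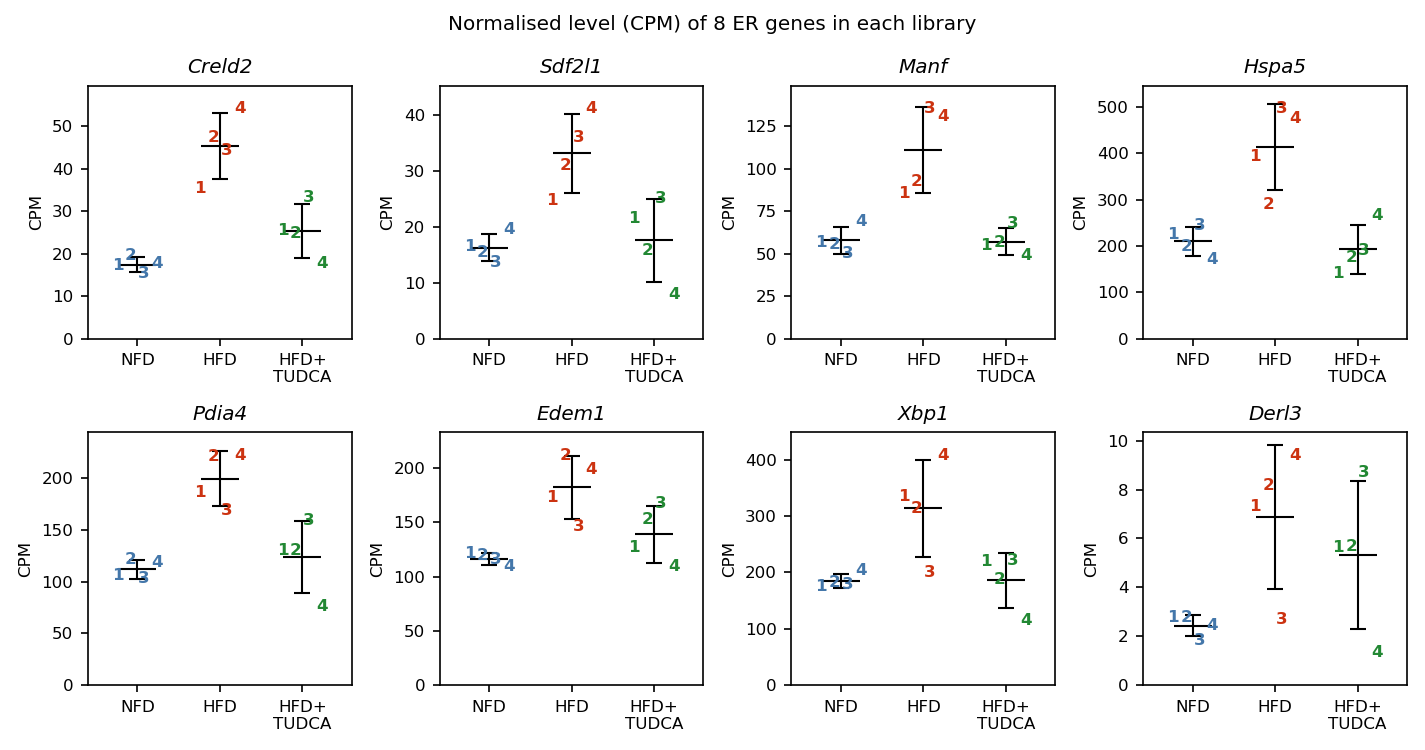
Level in CPM of the 6 called genes and of Xbp1 and Derl3 in each library, with the replicate number as the mark and the group mean with its SD as lines (4 libraries per group). The HFD libraries of the 6 called genes lie above those of NFD, while HFD replicate 3 of Xbp1 and of Derl3 lies within or next to the NFD range.

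Hsp90b1 (GRP94), the Hsp90 of the ER, was at 180.2, 147, 186 and 127 CPM in NFD, 345, 223, 269.7 and 219 CPM in HFD and 88.1, 124, 132 and 188 CPM in HFD+TUDCA. All HFD libraries were above the NFD libraries, replicate 1 farthest, and the difference did not pass the threshold (log2 fold change 0.74 ± 0.20, edgeR adjusted p = 0.0673). Its promoter carries both ERSE copies printed above. Dnajb11 (ERdj3), a J-protein that hands substrates to BiP, was at 61.9, 61.8, 57.9 and 70.4 CPM in NFD, 83.1, 86.2, 78.4 and 84.1 CPM in HFD and 57.0, 58.8, 70.2 and 51.3 CPM in HFD+TUDCA. It had narrow groups with no overlap of HFD with the others, and a log2 fold change of 0.41 ± 0.12 (edgeR adjusted p = 0.0790).

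Hyou1 (GRP170), which exchanges nucleotide on BiP, was at 77.6, 99.7, 92.7 and 116 CPM in NFD, 103, 116, 159.6 and 183 CPM in HFD and 121, 108, 105 and 87.1 CPM in HFD+TUDCA. Its HFD replicates 3 and 4 were above all other libraries and replicates 1 and 2 were within the NFD range (log2 fold change 0.54 ± 0.20, edgeR adjusted p = 0.159). Dnajb9 (ERdj4), a J-protein that recruits BiP to IRE1, was at 37.6, 34.1, 36.7 and 26.4 CPM in NFD, 50.3, 36.7, 52.6 and 62.6 CPM in HFD and 24.7, 33.8, 25.0 and 53.2 CPM in HFD+TUDCA, with HFD replicate 2 within the NFD range and HFD+TUDCA replicate 4 within the HFD range (0.59 ± 0.18, edgeR adjusted p = 0.103). Dnajc3 (p58IPK), a J-protein that also inhibits the kinase PERK, was at 61.8, 58.5, 66.1 and 46.8 CPM in NFD, 96.7, 66.5, 84.0 and 58.8 CPM in HFD and 28.2, 46.1, 37.5 and 60.3 CPM in HFD+TUDCA. HFD and NFD overlapped in it (0.40 ± 0.19, edgeR adjusted p = 0.264). Sil1, the other nucleotide exchange factor of BiP, and Dnajc10 (ERdj5), a disulfide reductase, had log2 fold changes of 0.29 ± 0.18 and 0.17 ± 0.31, neither of which passed.

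Of the 4 sensors and transcription factors 0 rose or fell by the adjusted test, with a median log2 fold change of 0.22. At an unadjusted p under 0.05 only Xbp1 was higher, where 12% of all genes were, and DESeq2 called Xbp1 (adjusted p = 0.00878). Xbp1 encodes the transcription factor of the IRE1 arm. It was at 175, 182, 178 and 203 CPM in NFD, 336, 313, 199.5 and 408 CPM in HFD and 219, 187, 221 and 115 CPM in HFD+TUDCA. HFD replicates 1, 2 and 4 were far above the NFD range and replicate 3 was within it, and the 1.71-fold difference did not pass (log2 fold change 0.78 ± 0.21, edgeR adjusted p = 0.0650). Without HFD replicate 3 it did (0.93 ± 0.15, adjusted p = 0.0105).

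Atf6, the membrane-bound sensor of its arm, was at 56.4, 52.4, 62.5 and 53.1 CPM in NFD, 78.5, 62.9, 66.3 and 63.7 CPM in HFD and 34.2, 52.8, 54.4 and 60.0 CPM in HFD+TUDCA. The lowest HFD library was only just above the highest NFD library, and the 1.22-fold difference did not pass (log2 fold change 0.29 ± 0.13, edgeR adjusted p = 0.248). Ern1, which encodes IRE1 alpha, was at 33.5, 31.5, 29.6 and 45.9 CPM in NFD, 30.6, 33.1, 24.9 and 50.1 CPM in HFD and 37.6, 32.1, 30.4 and 20.5 CPM in HFD+TUDCA, with overlapping groups (-0.01 ± 0.23, edgeR adjusted p = 0.989). The sign of its fold change turned on the FPKM scale and without NFD replicate 4 or HFD replicate 1, 2 or 3. The ATF6 relative Atf6b had a log2 fold change of 0.16 ± 0.15 and overlapping groups.

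The lectin chaperones bind the sugars of new glycoproteins, and none of the 3 passed (median log2 fold change 0.37). Calr (calreticulin), their soluble member, was at 474, 512, 465 and 609.8 CPM in NFD, 499, 633, 688 and 844 CPM in HFD and 536, 469, 519 and 401 CPM in HFD+TUDCA. HFD replicate 1 was within the NFD range and the others above it (log2 fold change 0.37 ± 0.18, edgeR adjusted p = 0.282). Canx (calnexin), the membrane-bound member, was at 172, 158, 194 and 147 CPM in NFD, 251, 189.5, 249.6 and 204 CPM in HFD and 109, 143, 135 and 220.0 CPM in HFD+TUDCA, and HFD replicate 2 was below the highest NFD library (0.43 ± 0.15, edgeR adjusted p = 0.149). Uggt1, the sensor that returns misfolded glycoproteins to the lectins, had a log2 fold change of 0.23 ± 0.13 with groups that did not overlap.

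Disulfide isomerases form and reshuffle disulfide bonds. Of the 6 members of this kind 1 rose, 0 fell and 5 did not pass, where 3.18% of all genes rose. The median log2 fold change of the 6 was 0.48 (range 0.26 to 0.84). At an unadjusted p under 0.05, 5 of 6 were higher, where 12% of all genes were. Pdia4 (ERp72) was at 106, 122, 103 and 118 CPM in NFD, 187, 221, 169 and 222 CPM in HFD and 129.9, 129.8, 159 and 75.7 CPM in HFD+TUDCA. The HFD libraries were above all others, and HFD+TUDCA spread from below the NFD range to near the lowest HFD library. Pdia4 rose 1.79-fold, to 199.6 ± 26.4 CPM in HFD over 112 ± 9.14 CPM in NFD (log2 fold change 0.84 ± 0.14, edgeR adjusted p = 0.0132), and lost its call without NFD replicate 1 (adjusted p = 0.0609) or 3 (0.0686).

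Pdia6 (P5), an isomerase bound to BiP, was at 162, 193, 165 and 180.0 CPM in NFD, 243, 249.9, 292 and 218 CPM in HFD and 167, 163, 169 and 146 CPM in HFD+TUDCA. All HFD libraries were above the other groups, which overlapped each other (log2 fold change 0.53 ± 0.14, edgeR adjusted p = 0.0615). Pdia3 (ERp57), the partner of the lectin chaperones, was at 251, 258, 254 and 240.4 CPM in NFD, 346, 338, 349.6 and 278 CPM in HFD and 153, 191, 229.7 and 231 CPM in HFD+TUDCA. Here NFD was narrow, HFD above it and HFD+TUDCA below it, without overlap (0.40 ± 0.13 for HFD against NFD, edgeR adjusted p = 0.128). Txndc5 (ERp46), an isomerase abundant in plasma cells and activated fibroblasts, was at 170.5, 206, 156 and 201 CPM in NFD, 242, 365, 222 and 337 CPM in HFD and 256, 272, 329.6 and 162 CPM in HFD+TUDCA, where HFD+TUDCA replicates 1 to 3 were within the HFD range and replicate 4 within that of NFD (0.68 ± 0.19, edgeR adjusted p = 0.0833). P4hb (PDI itself) and Txndc11, a thioredoxin-like partner of EDEM proteins, had log2 fold changes of 0.26 ± 0.15 and 0.44 ± 0.16 that did not pass. The prolyl isomerases Ppib (cyclophilin B) and Fkbp2 had 0.29 ± 0.13 and 0.36 ± 0.17, and neither passed.

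The 10 ERAD genes spread more widely, with log2 fold changes from -0.52 to 1.51 and a median of 0.32. Of these 1 rose, 0 fell and 9 did not pass, where 3.18% of all genes rose. Edem1, a lectin-like factor that selects misfolded glycoproteins for degradation, was at 122, 119.7, 116 and 109 CPM in NFD, 174, 212, 146 and 199 CPM in HFD and 127, 153, 168 and 109 CPM in HFD+TUDCA. Every HFD library was above the NFD libraries, and HFD+TUDCA covered the range from NFD into HFD. Edem1 rose 1.58-fold (log2 fold change 0.66 ± 0.15, edgeR adjusted p = 0.0350). This was the least stable of the 6 calls: of the fits that left out 1 library it held only without HFD replicate 3, and the adjusted p reached 0.131.

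The derlins, membrane proteins of the retrotranslocation channel, differed from one another. Derl3, which ER stress induces and which had an ERSE, was at 2.75, 2.75, 1.81 and 2.42 CPM in NFD, 7.29, 8.18, 2.67 and 9.39 CPM in HFD and 5.63, 5.69, 8.68 and 1.32 CPM in HFD+TUDCA. Its HFD replicates 1, 2 and 4 and HFD+TUDCA replicates 1 to 3 were above the NFD range, HFD replicate 3 was within it and HFD+TUDCA replicate 4 below it. The 2.85-fold difference between HFD and NFD did not pass (log2 fold change 1.51 ± 0.38, edgeR adjusted p = 0.0536), and passed without HFD replicate 3 (adjusted p = 0.00681).

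Derl1, singled out after its values were seen, went the other way, at 285, 283, 299 and 322 CPM in NFD, 166, 226, 208 and 226 CPM in HFD and 293, 319, 238 and 249 CPM in HFD+TUDCA. All HFD libraries were below all other libraries, by 1.43-fold on average against NFD (log2 fold change -0.52 ± 0.14, edgeR adjusted p = 0.0613). The difference passed with upper-quartile scaling (adjusted p = 0.0381), DESeq2 (0.00397) and limma-trend on log2(FPKM + 1) (0.0290), with an adjusted p of 0.00397 to 0.0698 over its alternatives other than leaving out a library. Derl2 had a log2 fold change of 0.07 ± 0.12.

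Sel1l and Syvn1 (HRD1) form the core ubiquitin ligase of ERAD. Sel1l was at 104, 109.6, 115 and 112 CPM in NFD, 138, 131, 135 and 141 CPM in HFD and 111, 112, 118 and 107 CPM in HFD+TUDCA, a narrow spread in which HFD did not overlap NFD (log2 fold change 0.31 ± 0.11, edgeR adjusted p = 0.135). Syvn1 was at 32.2, 36.9, 34.0 and 33.3 CPM in NFD, 30.4, 43.6, 36.8 and 73.5 CPM in HFD and 53.5, 54.1, 43.6 and 29.2 CPM in HFD+TUDCA. Its HFD replicate 4 stood alone at the top and HFD replicate 1 was below the NFD range (0.44 ± 0.24, edgeR adjusted p = 0.349). Herpud1, a stress-induced scaffold of this ligase, was at 131, 169.6, 165 and 163 CPM in NFD, 142, 264, 170.1 and 211 CPM in HFD and 178, 137, 183 and 115 CPM in HFD+TUDCA, with overlapping groups (0.33 ± 0.20, edgeR adjusted p = 0.386). The mannosidase-like genes Edem2 and Edem3 and the lectin gene Os9 had log2 fold changes of 0.50 ± 0.17, 0.11 ± 0.20 and 0.20 ± 0.14, none of which passed.

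None of the genes of entry into and exit from the ER passed. The 6 members of the Sec61 channel and its translocon-associated proteins had a median log2 fold change of 0.26, from 0.13 ± 0.14 in Ssr2 to 0.50 ± 0.16 in Sec61a1, the channel's pore-forming subunit, and none passed. HFD and NFD did not overlap in Sec61a1 and Ssr1. The COPII coat genes Sec24d and Sec23b, which form vesicles leaving the ER, had 0.29 ± 0.13 and 0.14 ± 0.15, and neither passed.

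The comparisons of HFD+TUDCA with HFD and with NFD ask whether TUDCA changed these genes on the high-fat diet and how far the treated mice were from the normal diet. Most members had lower fitted levels with TUDCA than on the high-fat diet alone and were close to NFD, but no difference from HFD passed the test adjusted over all genes. Against HFD, 0 of 44 members were called, as were 0% of the 14587 genes tested. At an unadjusted p under 0.05 edgeR found 12 members lower, where 6.54% of all genes were, and 1 higher (Derl1), where 5.42% were. The 12 were Manf, Hspa5, Hsp90b1, Creld2, Sdf2l1, Dnajb11, Dnajc3, Pdia3, Pdia4, Pdia6, Ppib and Xbp1. DESeq2 called 5 members lower (Hspa5, Manf, Pdia6, Pdia3 and Hsp90b1), where it called 1.92% of all genes lower. In 1 fit of all 12 libraries edgeR called 3 members lower (Hspa5, Manf and Pdia6), where it called 0.697% of all genes lower.

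All libraries of HFD+TUDCA were below all of HFD in 13 members, where 4.78% of all genes showed this, and above in 1, Derl1, where 2.75% did. The log2 fold change was above 0 in 2 of 44 members (Derl1 and Syvn1), where it was in 50% of all genes, and the median was -0.35 against 0.00 over all genes. By role the median was -0.80 for the Hsp70 and Hsp90 chaperones and partners, -0.49 for disulfide isomerases, -0.44 for lectin chaperones, -0.30 for translocation, -0.29 for sensors and transcription factors, -0.24 for ERAD, -0.22 for prolyl isomerases and -0.19 for COPII. The 2 comparisons with HFD share its 4 libraries, and those with NFD share the NFD libraries.

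The members with the lowest unadjusted p against HFD were Manf, Hspa5, Pdia6 and Creld2. Manf was 1.91-fold lower with TUDCA (log2 fold change -0.93 ± 0.19, unadjusted p = 0.000851, edgeR adjusted p = 0.169). Hspa5 was at 193 ± 53.0 against 414 ± 93.4 CPM (log2 fold change -1.07 ± 0.26, unadjusted p = 0.00241, edgeR adjusted p = 0.237). Their per-library values, given above, did not overlap between HFD and HFD+TUDCA. Pdia6 had -0.61 ± 0.15 (edgeR adjusted p = 0.237) and Creld2 -0.81 ± 0.21 (edgeR adjusted p = 0.257). Among the others, Hsp90b1 had -0.96 ± 0.27, Sdf2l1 -0.89 ± 0.33, Xbp1 -0.73 ± 0.26, Pdia4 -0.66 ± 0.22 and Edem1 -0.37 ± 0.18, with edgeR adjusted p-values of 0.268, 0.353, 0.353, 0.322 and 0.456.

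Against NFD, 0 of 44 members were called in HFD+TUDCA, where 0.1% of the 14942 genes tested were higher and 0.0937% lower. At an unadjusted p under 0.05, 3 members were higher, Creld2, Derl3 and Txndc5, where 6.79% of all genes were, and 0 were lower, where 4.66% were. DESeq2 called 0 members, and 2.18% of all genes higher and 1.39% lower. No member was above NFD in every library, where 3.88% of all genes were, and Pdia3 was below NFD in every library, where 3.43% were. The log2 fold change was above 0 in 18 of 44 members (10 on the log2(FPKM + 1) scale), against 50.7% of all genes, and its median was -0.04 against 0.01 over all genes. These results depended on HFD+TUDCA replicate 4: without it 4 members were called higher, Creld2, Derl3, Txndc5 and Syvn1, where 2.77% of all genes were.

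Gene by gene, most of the members that rose on the high-fat diet had no detectable difference from NFD with TUDCA, although an adjusted p that misses the threshold does not show equal levels. The log2 fold change against NFD was -0.02 ± 0.14 for Manf (edgeR adjusted p = 0.980), -0.12 ± 0.20 for Hspa5 (0.890), 0.11 ± 0.31 for Sdf2l1 (0.942), 0.14 ± 0.20 for Pdia4 (0.871) and 0.25 ± 0.14 for Edem1 (0.581). Creld2 was 1.46-fold above NFD on average (log2 fold change 0.54 ± 0.19, edgeR adjusted p = 0.302). Derl3 had 1.13 ± 0.48 (edgeR adjusted p = 0.419), Txndc5 0.48 ± 0.21 (0.429) and Pdia3 -0.32 ± 0.15 (0.463).

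**Figure D4:**
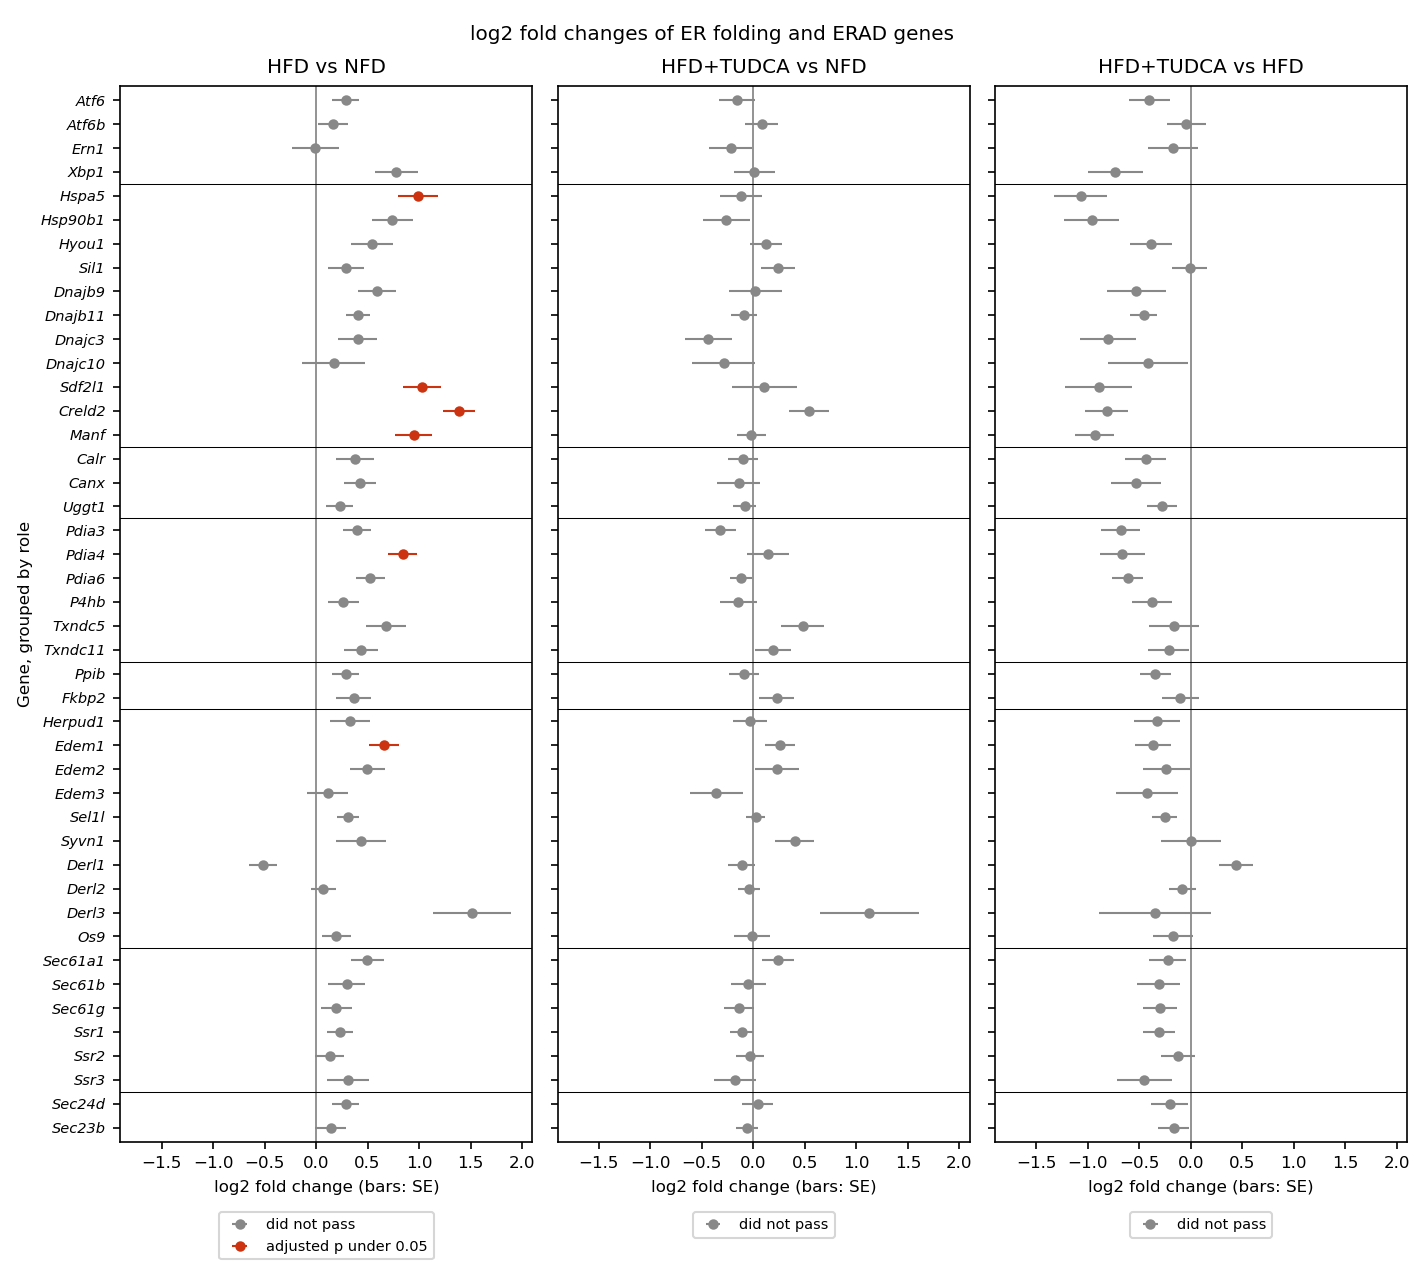
log2 fold change with its SE of 44 ER genes, grouped by role, in 3 comparisons; red marks an adjusted p under 0.05 over all genes (edgeR). In HFD against NFD all but Ern1 and Derl1 lie above 0 and 6 are red; in HFD+TUDCA against HFD all but Derl1 and Syvn1 lie below 0 and none is red.

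Markers of cells with a large ER moved with some members. The summed level of 14 plasma cell markers was 2195, 2993, 1824 and 1705 CPM in NFD replicates 1 to 4, 6549, 19449.8, 3529.9 and 16610.3 CPM in HFD and 7117, 8839, 9677 and 1518 CPM in HFD+TUDCA. Of these 14 markers 4 rose in HFD against NFD (Prdm1, Igkc, Ighg2c and Ighm), 0 fell and none was at 0 in any library. Ighm and Igkc together made up 56.7% to 81.7% of the sum, which therefore follows mainly these 2 genes. The log2 fold change was above 0 in 13 of the 14, the exception being Irf4, a transcription factor of B and plasma cells, at 107.5 ± 45.7 CPM in NFD and 62.0 ± 24.9 CPM in HFD (log2 fold change -0.79 ± 0.35, edgeR adjusted p = 0.236). Mzb1, an ER chaperone of B and plasma cells that is not a member, was at 20.5, 24.1, 14.3 and 18.1 CPM in NFD, 46.8, 104, 20.1 and 129.6 CPM in HFD and 67.4, 66.3, 86.9 and 8.16 CPM in HFD+TUDCA. HFD replicate 3 and HFD+TUDCA replicate 4 were the lowest libraries of their groups in this sum and in Mzb1. This was not particular to plasma cell markers. HFD+TUDCA replicate 4 was also lowest in the summed macrophage (1042 CPM), heart muscle (44.6 CPM) and epithelial (9.12 CPM) markers, and highest in smooth muscle (5529 CPM). HFD replicate 3 was also lowest of HFD in neutrophil markers (316 CPM), and highest in macrophage markers (4445 CPM). Singly, 12 of the 14 markers were lowest of HFD in replicate 3, but Irf4 was lowest in replicate 1, and Sdc1, the plasma cell surface marker syndecan-1, was highest of HFD in replicate 3, at 85.6 CPM. HFD replicate 3 was also the lowest of its group in 17 members, among them Derl3, Xbp1, Txndc5, Edem1, Edem2, Pdia4 and Sec61a1, and HFD+TUDCA replicate 4 in 28, which include those 17. The share of all genes lowest in either library was not counted.

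Of the 6 called members, Pdia4 and Edem1 were lowest of HFD in replicate 3, Creld2, Sdf2l1 and Manf in replicate 1 and Hspa5 in replicate 2. In HFD replicate 3 all 6 were above every NFD library, and Hspa5 and Manf were at their highest of all 12 libraries, at 496 and 135 CPM. Without HFD replicate 2, where 3.19% of all genes were higher, and likewise without HFD replicate 4, where 3.1% were, Creld2, Sdf2l1, Manf, Hspa5 and Pdia4 kept their calls against NFD and Edem1 lost it. In HFD+TUDCA replicate 4, 5 of the 6 were the lowest of their group, Creld2 at 17.6, Sdf2l1 at 7.90, Manf at 49.1, Pdia4 at 75.7 and Edem1 at 109 CPM, and Hspa5, at 266 CPM, was the highest.

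Macrophage and neutrophil markers rose with these genes on the high-fat diet. The summed level of 11 macrophage markers was 1023, 1139, 864 and 1073 CPM in NFD, 4189.8, 2631, 4445 and 2811 CPM in HFD and 1396, 1675, 1956 and 1042 CPM in HFD+TUDCA, and 9 of the 11 rose in HFD. For 10 neutrophil markers the sums were 65.9 to 84.2 CPM in NFD, 316 to 1297 CPM in HFD and 98.0 to 274 CPM in HFD+TUDCA, and 9 of 10 rose. None of either list was at 0 in any library. In both lists, as in the summed ER genes, every HFD library was above every library of the other groups. Of the markers of fibroblasts (8 genes, 2401 to 2989, 1916 to 4552 and 1568 to 2601 CPM in NFD, HFD and HFD+TUDCA) 0 passed between HFD and NFD, and of smooth muscle (8 genes, 3380 to 4210, 2127 to 3476 and 2611 to 5529 CPM) 1 fell. The part of any cell type in the differences of the ER genes was not tested.

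Within groups, the members did not vary independently, and their deviations from the group mean varied with the GC content of their transcripts. In HFD+TUDCA replicate 4, 28 of 44 members were the lowest of the group and 11 the highest. The share of all genes at the extremes of a library was not counted, so these counts are not shown to be particular to the members. Those 11 (Atf6, Canx, Dnajb9, Dnajc3, Dnajc10, Edem3, Hsp90b1, Hspa5, Pdia3, Ssr1 and Ssr3) were exactly the members that were lowest in HFD+TUDCA replicate 1. All members had a GC value, from 40.3% in Ssr3 to 60.8% in Atf6b, with a median of 49.8% against 51.1% over the tested genes.

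Across the 44 members, the deviation of log2 CPM from the group mean correlated with GC content with Pearson's r = 0.75 in HFD+TUDCA replicate 1 and -0.70 in replicate 4, and with 0.65 in NFD replicate 4 and 0.64 in HFD replicate 4. It was negative in NFD replicates 1 and 3 and HFD replicates 1 and 3 (-0.47, -0.58, -0.55 and -0.39) and between 0.21 and 0.35 in the remaining libraries. Over all 14697 tested genes with a GC value the same correlations were 0.39, -0.27, 0.39 and 0.28 in the libraries named first and -0.30, -0.31, -0.38 and 0.02 in NFD replicates 1 and 3 and HFD replicates 1 and 3. In the remaining libraries they were between -0.04 and 0.10. In HFD replicate 3 and HFD+TUDCA replicate 2 the members (-0.39 and 0.30) thus differed in sign from all genes (0.02 and -0.04). These are correlations across genes that share a library, and within a group the 4 deviations of a gene sum to 0, so they are a description without a test.

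**Figure D5:**
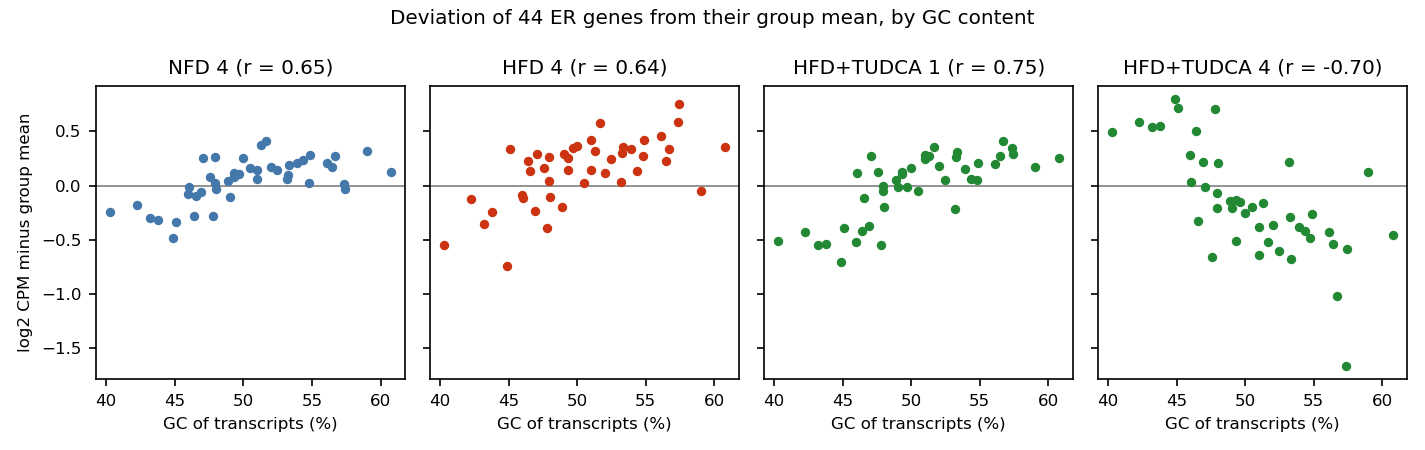
log2 CPM minus the group mean (vertical axis) against the GC content of transcripts (horizontal axis) for 44 ER genes in 4 libraries, each point a gene. The points rise with GC in NFD replicate 4, HFD replicate 4 and HFD+TUDCA replicate 1 and fall in HFD+TUDCA replicate 4.

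With a correction for GC content, added after the data were seen, 9 members were higher in HFD than in NFD, where 3.98% of all genes were. Creld2, Hspa5, Manf, Pdia4 and Sdf2l1 kept their calls, Edem1 lost it (adjusted p = 0.0533), and Hsp90b1 (0.0126), Derl3 (0.0407), Pdia6 and Txndc5 were added. In both comparisons of HFD+TUDCA the count was 0 with the correction as without it.

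Levels can be compared between genes per length of transcript, as FPKM (fragments scaled by transcript length and library size). In NFD, Calr was the most abundant member at 246 ± 32.4 FPKM, followed by P4hb at 169 ± 21.8 and Ppib at 165 ± 20.4 FPKM, which do not differ beyond their spread. A group of 7 genes with overlapping spreads came next, from Derl1 at 97.7 ± 5.53 FPKM over Pdia3, Xbp1, Ssr2, Herpud1 and Hspa5 to Pdia6 at 85.7 ± 7.26 FPKM. The group has no clear lower edge, since Sec61b, next at 77.2 ± 10.5 FPKM, overlapped Pdia6. The sensors Atf6 (8.06 ± 0.550 FPKM) and Ern1 (5.65 ± 1.21 FPKM) and the stress-induced Derl3 (1.93 ± 0.395 FPKM) were near the bottom. In HFD, Hspa5 was at 166 ± 28.1 and Derl1 at 64.3 ± 7.65 FPKM. In NFD both were in the group with overlapping spreads, Hspa5 at 86.2 ± 10.4 FPKM.

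Of 127 further genes in 7 lists of glycosylation, translocation, chaperone, collagen folding, ERAD, transport and ATF6 processing genes, 125 were tested in HFD against NFD. Of these 3 rose (2.4%) and 0 fell, where 3.18% of all genes rose and 1.64% fell, so the share that rose was near that of all genes. Their median log2 fold change was 0.12, against 0.04 over all genes. Spcs2, a subunit of the signal peptidase, rose from 99.7 ± 7.87 to 141 ± 10.2 CPM, a log2 fold change of 0.51 ± 0.12 (edgeR adjusted p = 0.0439). Erp29, a thioredoxin-fold chaperone, rose from 74.0 ± 6.32 to 105 ± 9.19 CPM, a log2 fold change of 0.51 ± 0.12 (edgeR adjusted p = 0.0486), and Fkbp11, a prolyl isomerase expressed in secretory cells, rose from 1.58 ± 0.371 to 4.01 ± 0.924 CPM, a log2 fold change of 1.35 ± 0.30 (edgeR adjusted p = 0.0349).

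The remaining lists had no call. For their genes with the lowest p, log2 fold changes between HFD and NFD were 0.36 ± 0.13, adjusted p = 0.137 for the oligosaccharyltransferase subunit Ostc, 0.55 ± 0.18, adjusted p = 0.119 for the ERAD factor Ubxn4, 0.43 ± 0.14, adjusted p = 0.110 for the COPII gene Sec24b and 0.49 ± 0.21, adjusted p = 0.233 for Wfs1, a regulator of ATF6. Among the 15 glycosylation genes the median was 0.14, among 19 translocation genes 0.21, among 25 chaperones and thioredoxins 0.12, among 15 collagen folding genes 0.13, among 23 ERAD genes 0.12, among 21 transport genes 0.07 and among 7 genes of ATF6 processing -0.03. In HFD+TUDCA 0 of these genes were called against HFD or NFD, with medians of -0.12 and -0.01.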

How the data were processed

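RNA sequencing of 12 mouse aorta libraries, 4 per group, was analysed from 1 table deposited by the authors. Its count columns hold expected counts per gene, per the file headers and their values (8.53% to 9.43% of values per library were not whole), and its FPKM columns were deposited beside them. Poly(A) RNA was made into cDNA libraries with a kit whose use of strand the labels do not state. The build was GRCm38, per the submitters' processing notes, and the labels name DESeq2 for the authors' comparisons. The sources used here do not give the aligner, counter or annotation. How reads shared by similar genes were counted is unknown.

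Counts were rounded to whole numbers and tested with edgeR 4.0.16 (R 4.3.3): TMM scaling, filterByExpr with a minimum count of 10, a robust quasi-likelihood fit of the 8 libraries of each comparison, and Benjamini-Hochberg adjustment over all genes at 0.05. CPM are scaled by TMM over the 12 libraries. SEs are the log2 fold change divided by the square root of F. Alternatives were upper-quartile or RLE scaling, limma 3.58.1 (voom, and trend on log2(FPKM + 1) and log2(FPKM + 0.1)), DESeq2 1.42.0, no filter, a minimum count of 30, a fold threshold of 2, 1 fit of all 12 libraries, a replicate block, leaving out each library, and a GC correction added after the data were seen. The steps were tested on simulated data, with changes set in genes drawn from all those tested. In HFD against NFD, 1.56% of 1.5-fold, 20% of 2-fold and 79.7% of 4-fold changes were called. In HFD+TUDCA against HFD these shares were 0%, 8.7% and 67.2%. Most changes of 2-fold or less were thus missed, and a gene that did not pass is not shown to be unchanged. GC content is the mean over protein-coding transcripts of GENCODE M21. Promoter windows are RefSeq's for GRCm38.p6.

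Members and lists were chosen with earlier results of these data known. Values in every library are given for called members and a fixed panel, and Pdia3, Pdia6 and Txndc5 were added where no member was called and the 4 with the lowest unadjusted p were named. Derl1 was chosen after its values were seen. In lists of further genes, those called and some of the lowest p are named.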

Additional observations from a re-analysis of the deposited data

Results flagged for a closer look

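Of 132 sets of 4 libraries (44 members in 3 groups), 1 held a library far from the others: Pdia3 was at 278 CPM in HFD replicate 4 and at 338 to 350 CPM in the other HFD libraries, so that its gap to them was most of the group's range. Chance flags about 1 in 20 such groups.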

How the results depend on the processing

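Of the alternatives for single genes, 633 kept the direction and the side of the threshold, 24 lost a call, 26 gained one and 20 changed sign. Of those for member counts and medians, 165 stayed close to the reported value and 12 moved. Members higher in HFD than in NFD numbered 15 with DESeq2, 2 with a fold change of at least 2 and 1 to 9 when 1 library was left out (NFD replicates 1 and 3, 1 member each; NFD replicate 2, 2 members; HFD replicate 3, 9 members). How many of all genes passed with a fold change of at least 2 was not counted. Members lower numbered 1 (Derl1) with upper-quartile scaling, DESeq2 and limma-trend on log2(FPKM + 1) or log2(FPKM + 0.1). Against HFD, members lower in HFD+TUDCA numbered 5 with DESeq2 and 3 in 1 fit of all 12 libraries. Against NFD, members higher in HFD+TUDCA numbered 0 to 4 when 1 library was left out, 4 only without HFD+TUDCA replicate 4, where 682 genes passed in place of 29. The cause of these shifts was not tested.

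Signs turned only in fold changes near 0 that never passed. For Ern1 (HFD against NFD) the log2 fold change was 0.04 on both FPKM scales (0.0377 and 0.0407) and -0.28 to 0.14 without 1 library. In HFD+TUDCA against NFD it was 0.0614 for Manf with GC correction, -0.0095 and -0.0112 for Pdia4 on the FPKM scales, and for Sdf2l1 -0.0195 with limma-voom, -0.0919 and -0.1085 on the FPKM scales and -0.0098 with GC correction. Without 1 library these ranged from -0.33 to 0.0085 for Hspa5, -0.11 to 0.0753 for Manf, -0.0032 to 0.30 for Pdia4 and -0.11 to 0.34 for Sdf2l1.

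Over all genes, HFD against NFD gave 475 higher and 245 lower with TMM, 407 and 332 with upper-quartile scaling, 320 and 416 on log2(FPKM + 1), 328 and 381 on log2(FPKM + 0.1), 973 and 713 with DESeq2 (1686 in all), and 585 and 358 with GC correction. In HFD+TUDCA against NFD the median of all genes was -0.13 on log2(FPKM + 0.1) and 0.01 with TMM, and DESeq2 called 533 genes. In HFD+TUDCA against HFD, 0 genes passed, 343 with DESeq2 and 115 in 1 fit of all 12 libraries.

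With the replicate number as a block, 9 members were higher in HFD than in NFD (Derl3, Hsp90b1 and Txndc5 added), where 441 of all genes were higher and 335 lower. In the comparisons of HFD+TUDCA 0 members were called with the block, where all genes called numbered 8 against NFD and 0 against HFD. The numbers were not taken as a pairing, since same-numbered libraries correlated above 0.1 in 0 of 4 pairs between HFD+TUDCA and NFD or HFD (-0.359 to -0.0823 and -0.465 to -0.234). Between HFD and NFD they did so in 3 of 4 pairs (0.0942 to 0.381), where pairs of unlike number ranged from -0.329 to 0.367. For HFD against NFD these values do not exclude a pairing. The lowest count of a member in a library was 26, in Derl3, and what depth contributed to any missing call was not tested.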
